A study of Mus musculus with 6 samples.

Results

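The genes of major histocompatibility complex (MHC) class I and of its peptide loading are described here in mouse soleus, a slow muscle of the lower leg, after its nerve supply was removed. They are H2-K1, H2-D1, H2-Q1, H2-Q2, H2-T10 and H2-T23, which encode heavy chains, B2m, which encodes the light chain, and Tap1, Tap2 and Tapbp, which encode loading proteins. The 10 genes were chosen by name, out of 21572 gene symbols in the files, with their fold changes in these same libraries already known. Their changes and adjusted p-values are therefore given as a description of these libraries and not as independent evidence of a direction. In the deposited files H2-D1 shares its entry with LOC547349, so every value printed for H2-D1 covers both symbols.

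RNA from whole muscle was sequenced in 6 libraries, 2 in each of 3 groups, to find genes that depend on Dach2 and Hdac9 after denervation. The first group was soleus labelled Dach2-/-/Hdac9-/- and denervated for 3 days, called DKO-labelled here. The second was wild-type (WT) soleus denervated for 3 days, and the third was innervated WT soleus. All 6 samples are labelled adult and C57BL/6, a common inbred laboratory strain. Every DKO-labelled muscle was denervated, so an innervated muscle of that genotype is not part of the comparisons. The sources used here give neither the H2 haplotype of the animals nor whether the 2 libraries of a group came from separate animals, so p-values measure only the spread between these libraries.

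Class I molecules carry short peptides from proteins made inside the cell to its surface, where CD8+ T cells and natural killer cells read them. Peptides are cut by the proteasome, pumped into the endoplasmic reticulum by the TAP transporter and loaded onto a heavy chain paired with beta-2 microglobulin. Resting muscle fibres are known to carry little class I on their surface, the endothelial cells of the muscle carry much more, and interferons raise the whole set of genes together.

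Of the 10 genes, 9 lie in the H2 complex on chromosome 17 and B2m lies on chromosome 2. In the coordinates of the files (build mm9), H2-K1 spans chr17:34132956-34137278, Tap1 chr17:34324500-34334170, H2-Q2 chr17:35479277-35482667 and H2-T10 chr17:36254032-36258355. H2-D1 and H2-Q1 are filed under the same locus, chr17:35400038-35462354, and B2m under chr2:121945843-122011925. Each locus is the span of a whole gene or gene cluster, with its exons and introns.

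Promoters are shown for 5 of the genes, because H2-K1 and H2-D1 had different changes in DKO-labelled muscle although they are alike upstream, and H2-Q2, H2-T23 and B2m are set beside them. The table of RefSeq promoter sequences (build GRCm38.p6) held 7 of the 10 genes, all but H2-Q1, H2-T10 and Tap2, and for each of the 5 the 250 bases before the annotated start are printed 5′ to 3′ on the strand of the gene. For H2-K1, which has 2 windows in the table, the first is used. The window of H2-K1 is chr17:34000348-34000597 on the minus strand, that of H2-D1 chr17:35262844-35263093 on the plus strand and that of H2-Q2 chr17:35342057-35342306 on the plus strand. The window of H2-T23 is chr17:36032702-36032951 on the minus strand and that of B2m chr2:122147437-122147686 on the plus strand. Capitals mark exact matches to 4 motifs. They are a kappa B motif, bound by NF-kappa B and Rel proteins, which is the run of 10 capitals in the lines of H2-K1 and H2-D1, TGACG, the core of a cyclic AMP response element, CCAAT, which reads ATTGG on the other strand, and an interferon regulatory factor motif, TTTC and TTTC with any bases NN between them.
H2-K1: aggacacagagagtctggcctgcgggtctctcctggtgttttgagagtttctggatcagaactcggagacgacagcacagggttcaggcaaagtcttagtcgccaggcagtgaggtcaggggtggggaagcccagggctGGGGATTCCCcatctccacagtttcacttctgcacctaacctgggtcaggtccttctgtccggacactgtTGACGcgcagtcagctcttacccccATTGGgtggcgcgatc
H2-D1: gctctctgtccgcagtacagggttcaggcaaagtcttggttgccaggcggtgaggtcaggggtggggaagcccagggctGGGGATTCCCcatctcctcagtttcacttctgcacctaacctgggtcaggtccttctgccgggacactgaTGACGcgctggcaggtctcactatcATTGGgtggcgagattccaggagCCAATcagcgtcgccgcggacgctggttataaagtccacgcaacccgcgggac
H2-Q2: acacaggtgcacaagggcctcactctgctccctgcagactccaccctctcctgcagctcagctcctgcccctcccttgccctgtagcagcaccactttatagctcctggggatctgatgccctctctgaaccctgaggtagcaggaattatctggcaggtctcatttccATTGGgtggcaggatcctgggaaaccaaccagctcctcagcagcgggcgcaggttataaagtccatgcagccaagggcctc
H2-T23: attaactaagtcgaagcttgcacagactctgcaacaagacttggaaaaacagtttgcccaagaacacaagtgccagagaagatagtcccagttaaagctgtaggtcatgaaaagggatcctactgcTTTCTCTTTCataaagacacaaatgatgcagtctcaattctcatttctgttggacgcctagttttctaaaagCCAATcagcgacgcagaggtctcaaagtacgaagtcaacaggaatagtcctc
B2m: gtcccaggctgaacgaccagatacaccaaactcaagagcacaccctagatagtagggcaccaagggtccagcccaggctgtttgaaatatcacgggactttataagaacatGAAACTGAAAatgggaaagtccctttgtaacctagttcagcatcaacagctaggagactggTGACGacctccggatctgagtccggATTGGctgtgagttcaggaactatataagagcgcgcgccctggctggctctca

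The windows of H2-K1 and H2-D1 were the most alike of these genes, with 166 identical bases among 190 aligned ones (87.4%). Both held the kappa B motif, which started 111 bases before the start of H2-K1 and 171 bases before that of H2-D1. The motif was present in 28 of 32851 windows of the same length (0.0852%). TGACG followed by ATTGG after exactly 20 bases occurred in H2-K1, H2-D1 and B2m, and the same pair with a gap of 15 to 25 bases occurred in 68 windows (0.207%). Only 4 windows (0.0122%) held both the kappa B motif and that pair. The window of H2-Q2 held ATTGG but neither TGACG nor the kappa B motif, although 144 of 192 aligned bases matched H2-D1 (75.0%). H2-T23 and B2m held the interferon regulatory factor motif, which 978 windows held (2.98%). At least 1 CCAAT on either strand was present in all 7 windows, against 33.8% of windows in the table, and TGACG was present in H2-K1, H2-D1, B2m and Tap1, against 17.8%. The motifs were chosen with these sequences in view, both strands were searched, none of the marked motifs overlapped another, and a match is a description of letters and not of a bound site. The window of Tap1 overlaps that of Psmb9, an immunoproteasome gene transcribed from the opposite strand.

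**Figure D1:**
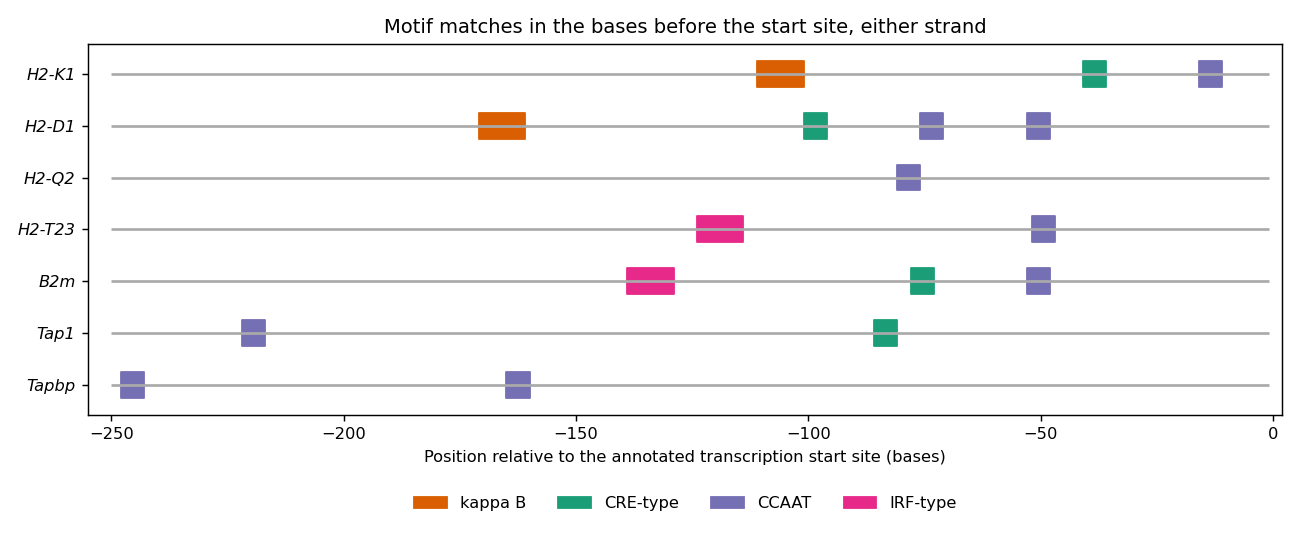
Positions of 4 motifs in the 250 bases upstream of 7 of the genes, with distance from the annotated start in bases on the horizontal axis and 1 gene per row. The kappa B motif appears in the rows of H2-K1 and H2-D1, and the CCAAT motif appears in all 7 rows.

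The libraries held between 25529434 and 46305449 fragments in genes. Hdac9 was at 0.534 and 0.181 FPKM (fragments per kilobase of transcript, scaled to library depth) in DKO-labelled libraries, 1.83 and 0.285 FPKM in denervated WT, and 4.10 and 3.14 FPKM in innervated WT. Its values overlapped between the denervated groups, so they did not set these groups apart either. Dach2 was at 0.961 and 0.681 FPKM in DKO-labelled libraries, 0.519 and 0.536 FPKM in denervated WT, and 3.85 and 4.29 FPKM in innervated WT, so its level did not set the DKO-labelled group apart from denervated WT in the direction of its label. A gene-level value may include reads from parts of a gene outside a deletion, and which parts were deleted is unstated in the labels. The denervated WT libraries differed most from each other, and the second of them stood apart from the other 5 on the second principal component, which held 13.1% of the variance. The list of 8 slow fibre markers also held Acta1 and Ckm, muscle genes that are not particular to slow fibres. Of these 8 genes 7 were detected, with a summed level of 26200 to 33900 FPKM in innervated WT, and Acta1 was listed at 0 in all 6 libraries.

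Beta-2 microglobulin was the most abundant of the 10 transcripts in every library. B2m was at 135 and 111 FPKM in DKO-labelled libraries, 140 and 108 FPKM in denervated WT, and 237 and 238 FPKM in innervated WT. Both denervated groups lay below innervated WT, and the denervated groups overlapped each other. H2-D1, a classical heavy chain that presents peptides to CD8+ T cells, was at 49.1 and 35.9 FPKM in DKO-labelled libraries, 52.5 and 44.6 FPKM in denervated WT, and 89.0 and 92.2 FPKM in innervated WT. The order was the same as for B2m, with the denervated groups overlapping and both below innervated WT. H2-K1, the other classical heavy chain in these mice, was at 37.0 and 34.3 FPKM in DKO-labelled libraries, 10.8 and 7.82 FPKM in denervated WT, and 20.4 and 24.4 FPKM in innervated WT. For H2-K1 the DKO-labelled libraries were the highest, innervated WT was intermediate and denervated WT was the lowest, with no overlap among the 3 groups.

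The nonclassical heavy chains were less abundant. H2-T23 encodes Qa-1, which natural killer cells read through the CD94/NKG2 receptors, and it was at 8.40 and 7.90 FPKM in DKO-labelled libraries, 5.16 and 4.21 FPKM in denervated WT, and 6.54 and 6.72 FPKM in innervated WT. Its groups fell in the same order as those of H2-K1, over a narrower range. H2-T10, whose product is recognised by some gamma delta T cells, was at 1.22 and 0.795 FPKM in DKO-labelled libraries, 3.39 and 3.19 FPKM in denervated WT, and 4.23 and 3.63 FPKM in innervated WT. The DKO-labelled libraries were apart from all 4 WT libraries. H2-Q2, of the Q region of the complex, was at 0.115 and 0.0636 FPKM in DKO-labelled libraries, 2.12 and 1.56 FPKM in denervated WT, and 3.33 and 4.09 FPKM in innervated WT. H2-Q1, its neighbour, was at 0.162 and 0.119 FPKM in DKO-labelled libraries, 0.790 and 0.791 FPKM in denervated WT, and 1.29 and 1.31 FPKM in innervated WT. Both Q-region genes had no overlap among the 3 groups, with DKO-labelled libraries lowest. The DKO-labelled values rest on few fragments, 6.12 and 3.2 for H2-Q2 and 15.3 and 10.7 for H2-Q1, against 71.3 to 150 fragments for H2-Q2 and 67.2 to 104 fragments for H2-Q1 in the WT libraries.

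The loading genes were lower in both denervated groups than in innervated WT. Tap1, one subunit of the peptide transporter, was at 1.56 and 0.808 FPKM in DKO-labelled libraries, 1.46 and 0.794 FPKM in denervated WT, and 3.28 and 2.77 FPKM in innervated WT. Tap2, its partner subunit, was at 4.95 and 4.91 FPKM in DKO-labelled libraries, 7.51 and 4.47 FPKM in denervated WT, and 9.93 and 10.5 FPKM in innervated WT. Tapbp, which encodes tapasin, the bridge between TAP and empty class I, was at 11.2 and 9.48 FPKM in DKO-labelled libraries, 10.7 and 6.53 FPKM in denervated WT, and 16.4 and 15.6 FPKM in innervated WT. For all 3 loading genes the denervated groups overlapped each other and innervated WT was above both.

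**Figure D2:**
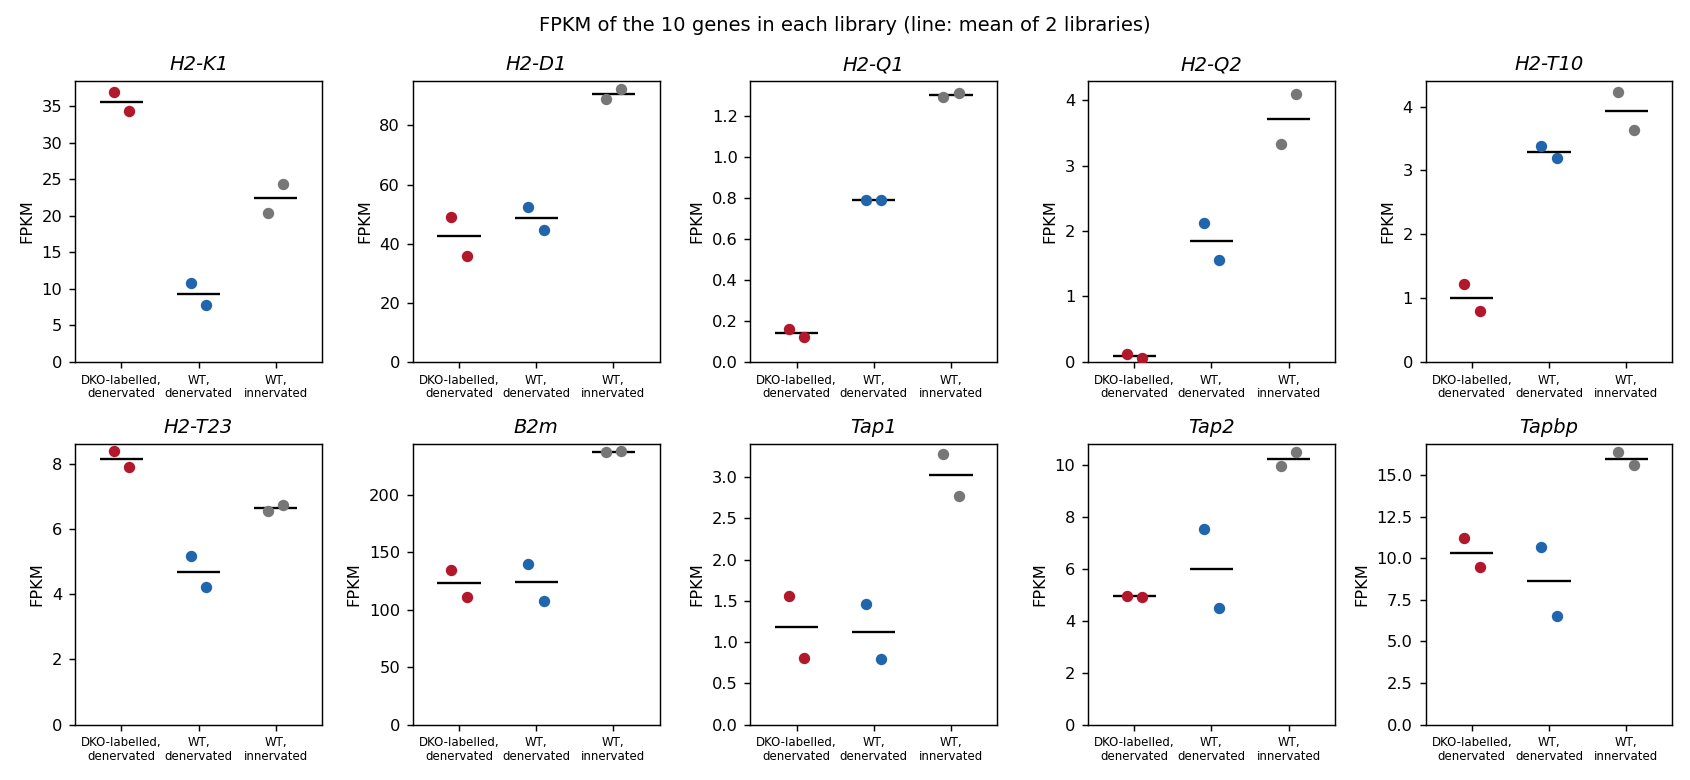
FPKM of the 10 genes on linear axes from 0, 1 panel per gene, with DKO-labelled, denervated WT and innervated WT from left to right, 1 point per library and a line at the mean of 2 libraries. H2-K1 is at 34.3 to 37.0 FPKM in DKO-labelled libraries and at 7.82 to 10.8 FPKM in denervated WT, while H2-Q2 is at 0.0636 to 0.115 FPKM in DKO-labelled libraries and at 1.56 to 2.12 FPKM in denervated WT.

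All 10 genes passed the filter of a mean of 0.5 FPKM over the 6 libraries. H2-Q1 and H2-Q2 passed through their WT libraries alone, since both DKO-labelled libraries were below 0.5 FPKM. The heavy chains share stretches of sequence with other genes, and their counts are uncertain in that respect. Of the 50-base stretches in the transcripts of H2-T10, 50.4% also occur in another gene, most often H2-T22, and the share was 23.2% for Tapbp, 16.1% for H2-Q2, 15% for H2-Q1, 14.5% for H2-T23, 12.8% for H2-D1, 11.6% for Tap2, 9.63% for H2-K1 and 3.33% for Tap1. B2m shared 0 of its 811 such stretches, and it was the only one of the 10 genes whose deposited fragments were whole numbers, to within 1e-06 fragments, in all 6 libraries.

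The first question was how 3 days of denervation changed these genes in WT muscle. H2-K1, H2-D1, B2m and Tapbp fell in denervated WT against innervated WT, and no member rose. The fitted changes on the log2 scale, with standard errors, were -1.17 ± 0.20 for H2-K1 (edgeR quasi-likelihood test, adjusted p = 0.00996), -0.94 ± 0.18 for B2m (edgeR adjusted p = 0.0144), -0.81 ± 0.19 for H2-D1 (edgeR adjusted p = 0.0247) and -0.82 ± 0.25 for Tapbp (edgeR adjusted p = 0.0485). These 4 of 10 members stand beside 14.3% of the 12247 genes tested that were called lower, 14.4% that were called higher and 28.7% called in either direction. At an unadjusted p under 0.05 there were 7 members, beside 43.9% of all genes. DESeq2 called 5 members lower, beside 36.9% of all genes called, and limma on log2(FPKM + 0.5) called 7, beside 28.5%. All 10 members were lower in both denervated WT libraries than in both innervated WT libraries, which held for 38.5% of all genes tested. The median change of the members was -0.81, beside 0.00 for all genes tested.

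The remaining 6 members had values below 0 that missed the threshold of 0.05. Tap1 had a log2 change of -1.33 ± 0.42 (edgeR adjusted p = 0.056), H2-Q2 of -0.91 ± 0.34 (edgeR adjusted p = 0.0864) and Tap2 of -0.68 ± 0.26 (edgeR adjusted p = 0.0912). H2-Q1 was at -0.66 ± 0.30, H2-T23 at -0.40 ± 0.20 and H2-T10 at -0.16 ± 0.28, with edgeR adjusted p-values of 0.135, 0.175 and 0.692. H2-T10 thus had the smallest change of the 10, and it was above 0, at 0.11, when libraries were scaled by their totals alone, which moves the median of all genes to 0.27 in this comparison. Fewer members were called without either innervated WT library or without the second denervated WT library, and more without the first denervated WT library. The count over all genes tested moved the same way each time. The median change of the members was -0.81 without the first innervated WT library and -0.77 without the second. It was -1.12 without the first denervated WT library and -0.68 without the second.

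The rest of the pathway was read from lists that were also written with earlier results known. The counts called in each list stand beside 14.4% of all genes tested called higher, 14.3% called lower and 28.7% called in either direction. Of 6 tested genes in the list of other heavy chains of the complex, 4 fell in denervated WT. H2-Q6 fell by 1.74 on the log2 scale, H2-T24 by 1.68, H2-Q8 by 1.66 and H2-Q7 by 1.33. H2-K2 and H2-Gs10 are heavy chains outside that list and were added after their values were seen. They fell by 1.17 ± 0.26 and 1.10 ± 0.22 (edgeR adjusted p = 0.022 and 0.0166). H2-T24 was at 1.05 and 0.601 FPKM in denervated WT, against 2.91 and 2.62 FPKM in innervated WT. Of 5 immunoproteasome genes, whose products are made in response to interferon and cut peptides that suit class I, 4 fell, and the values were -1.52 ± 0.37 for Psmb9, -1.18 ± 0.18 for the activator subunit Psme1, -0.94 ± 0.24 for Psmb8 and -0.77 ± 0.23 for Psmb10. Psmb9 was at 4.56 and 2.43 FPKM in denervated WT, against 10.5 and 10.6 FPKM in innervated WT. Among the 3 constitutive subunits that the immunoproteasome replaces, Psmb5, whose entry also lists Mir686, rose by 0.97 ± 0.17 and none fell.

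Of 10 genes for general folding and trimming proteins of the endoplasmic reticulum and cytosol, 6 rose, 1 fell and 3 did not pass the test. The tapasin-related protein gene Tapbpl rose by 1.19 ± 0.26, the cytosolic peptidase gene Thop1 by 1.10 ± 0.19 and the calnexin gene Canx by 0.99 ± 0.15, while the aminopeptidase gene Npepps fell by 1.10 ± 0.16. Canx was at 61.2 and 62.4 FPKM in denervated WT, against 32.7 and 29.9 FPKM in innervated WT. Beside 28.7% of all genes tested called in either direction, 5 of 24 tested regulators of class I transcription fell and 1, Relb, rose. Among them Irf1, a transcription factor induced by interferon, fell by 1.27 ± 0.33, the kinase gene Jak2 by 1.09 ± 0.24 and Creb1, whose product binds cyclic AMP response elements, by 0.88 ± 0.22. Nlrc5, the transactivator of class I genes, was below the filter, at 0.208 and 0.124 FPKM in denervated WT, against 0.516 and 0.671 FPKM in innervated WT. Of 5 tested class I-like genes outside the complex, Mr1 fell by 1.38 ± 0.31 and Procr by 1.28 ± 0.32. All of these named calls passed the edgeR threshold, with adjusted p-values from 0.00651 to 0.0482. Over all 16 lists outside the 10 genes 10 genes rose and 35 fell of 103 tested. Of all genes tested 14.4% were called higher and 14.3% lower. Both list counts were lower without either innervated WT library, as was the count over all genes tested. Without the second denervated WT library fewer genes of the lists fell, and fewer of all genes tested were called.

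No class II gene was called, of 6 tested, and H2-Aa and H2-Ab1 had values of -0.66 ± 0.60 and -0.71 ± 0.63. Of the receptors for class I, Lilrb4 and Lilrb3 were the tested ones, at 0.51 ± 0.30 and 0.26 ± 0.47, and neither was called. For these 4 genes edgeR's adjusted p-values ran from 0.236 to 0.701.

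**Figure D3:**
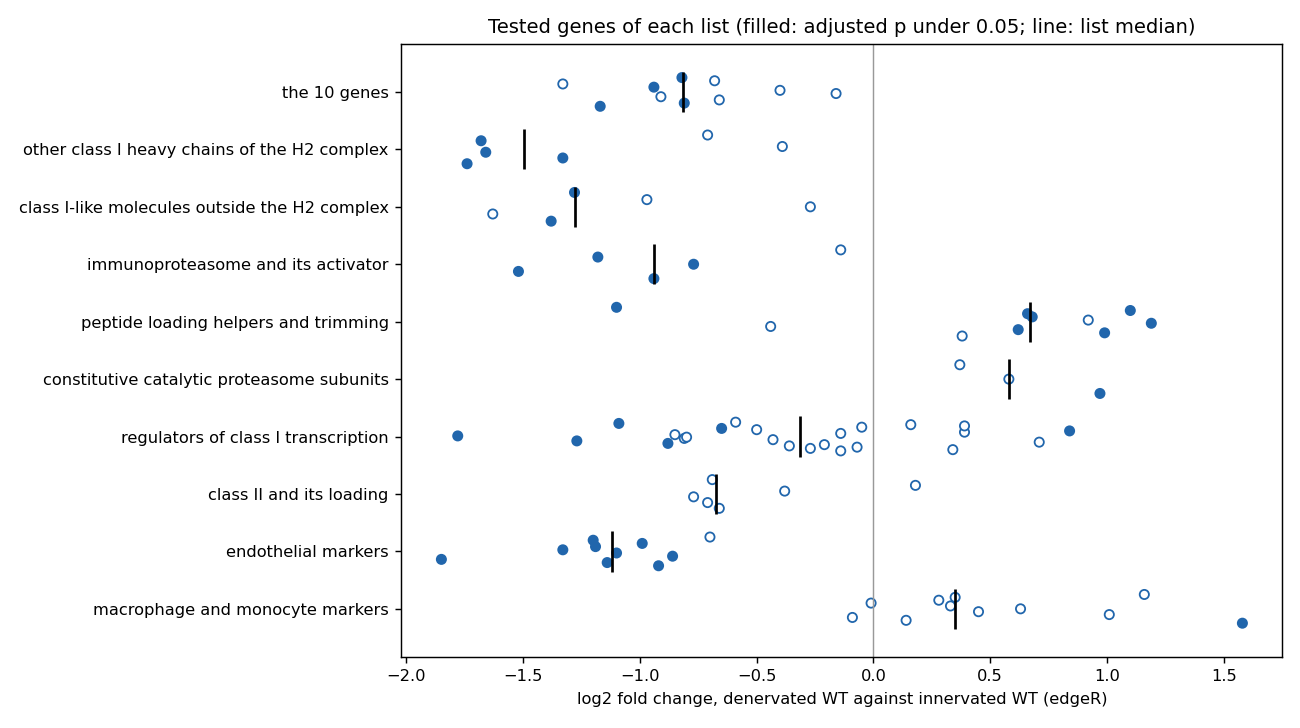
log2 change in denervated WT against innervated WT of each tested gene, with 1 row for each of 10 lists, filled points for genes called by edgeR and a line at the median of the list. Of the genes called, 4 of 5 immunoproteasome genes and 9 of 10 endothelial markers lay below 0, while 6 of 10 loading helpers lay above 0. Of all genes tested 14.3% were called lower and 14.4% higher.

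Markers of other cells in the muscle were read beside these changes. For each cell type the counts called stand beside 14.4% of all genes tested called higher and 14.3% called lower. Of 10 endothelial markers 9 fell in denervated WT, with a median log2 change of -1.12, among them Kdr at -1.85 ± 0.21 and Cldn5 at -1.33 ± 0.28. Their summed level was 91.5 to 99.5 FPKM in denervated WT, against 198 to 234 FPKM in innervated WT, and none of the markers in the cell type lists other than Acta1 was at 0 in all 6 libraries. Fewer cells of a type and less RNA per cell cannot be told apart in RNA from whole muscle. Among 11 macrophage and monocyte markers Cd68 rose by 1.58 ± 0.28, and their sum was 251 to 330 FPKM in denervated WT, against 180 to 279 FPKM in innervated WT. Itgax, the only one of 2 tested dendritic cell markers to be called, rose by 2.08 ± 0.35, with summed levels of 3.27 to 3.30 FPKM in denervated WT, against 2.15 to 2.55 FPKM in innervated WT.

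No marker of T and NK cells or of B cells passed the filter. The summed T and NK cell markers were at 0.724 to 0.887 FPKM in denervated WT, against 1.07 to 1.62 FPKM in innervated WT, and the B cell markers at 0.384 to 0.521 FPKM, against 0.802 to 1.64 FPKM. Of 6 Schwann cell markers 4 fell, with the myelin gene Prx at -1.65 ± 0.20 and a sum of 22.9 to 23.1 FPKM in denervated WT, against 55.2 to 56.3 FPKM in innervated WT. Of 6 fibroblast markers Dcn fell, at -0.56 ± 0.17, and the sum was 369 to 533 FPKM in denervated WT, against 659 to 860 FPKM in innervated WT. Of 7 tested genes in the slow fibre list 5 fell, Myl2 by 2.49 ± 0.22. The sum was 9980 to 10700 FPKM in denervated WT, against 26200 to 33900 FPKM in innervated WT. Ckm, which is not particular to slow fibres, was among the 5. It was at 3360 and 3530 FPKM in denervated WT, against 8480 and 8810 FPKM in innervated WT. The part of these lists in the changes of class I genes was not tested.

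The second question was how DKO-labelled muscle differed from WT muscle when both were denervated. This comparison shares the denervated WT libraries with the first. Levels of H2 genes are those of fragments assigned to the copies in the mm9 reference, and whether the H2 haplotype of the DKO-labelled animals is that of the reference was not tested, for H2-K1, H2-Q1, H2-Q2, H2-T10 and H2-K2 as for the others. By edgeR 0 of the 10 members passed the adjusted threshold, beside 5 of all 12247 genes tested (0.0408%), 3 of them higher (0.0245%) and 2 lower (0.0163%). At an unadjusted p under 0.05 there were 5 members, H2-K1, H2-T23, H2-Q1, H2-Q2 and H2-T10, beside 6.11% of all genes tested. DESeq2 called the same 5, with H2-K1 and H2-T23 higher and H2-Q1, H2-Q2 and H2-T10 lower, beside 1.49% of all genes. limma on log2(FPKM + 0.5) called H2-K1 higher and H2-Q2 lower, beside 0.269% of all genes.

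H2-K1 had a log2 change of 1.99 ± 0.20, which is 3.97-fold higher in DKO-labelled libraries (edgeR adjusted p = 0.052). H2-Q2 had a fitted change of -4.31 ± 0.45 (edgeR adjusted p = 0.052). H2-Q2 and H2-Q1 entered the test only through the WT libraries, where they are high, so their low DKO-labelled values are a description and lend no support to a count of members. H2-Q1 was at -2.48 ± 0.34, H2-T10 at -1.68 ± 0.29 and H2-T23 at 0.84 ± 0.20, with edgeR adjusted p-values of 0.134, 0.213 and 0.408. In each of these 5 genes both DKO-labelled libraries lay on the same side of both denervated WT libraries, 2 of them higher and 3 lower, beside 14.7% of all genes tested that were higher without overlap and 15.1% that were lower. The other 5 members overlapped between the groups, with H2-D1 at -0.14, B2m at -0.07, Tap1 at 0.12, Tap2 at -0.23 and Tapbp at 0.30, and edgeR adjusted p-values from 0.97 to 0.995. Without the first denervated WT library edgeR called H2-K1 higher and H2-Q2 lower, and without the second it called H2-Q2 lower. More of all genes tested were called in both of these fits as well. The sign of H2-D1, B2m, Tap1 and Tap2 changed when 1 library or another was left out. The median of the members was -0.11, beside -0.02 for all genes tested.

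Since H2-K1 and H2-D1 lie in the same complex and share much of their upstream sequence, their proportion was followed within each library. The ratio of H2-K1 to H2-D1 in FPKM was 0.754 and 0.955 in DKO-labelled libraries, 0.205 and 0.175 in denervated WT, and 0.229 and 0.265 in innervated WT. H2-K1 made up 30.1% and 34.4% of the summed FPKM of the 29 class I heavy chain entries in DKO-labelled libraries, 11.1% and 9.74% in denervated WT, and 12% and 13.2% in innervated WT. In both measures the 4 WT libraries lay close together and the DKO-labelled libraries lay above them. The summed FPKM of the 29 entries was 123 and 99.7 in DKO-labelled libraries, 97.4 and 80.3 in denervated WT, and 169 and 185 in innervated WT. That sum in DKO-labelled libraries was above denervated WT in both libraries and below innervated WT, and it was not tested.

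Other proportions were given by the same libraries. The ratio of H2-T23 to H2-T10 was 6.86 and 9.93 in DKO-labelled libraries, 1.52 and 1.32 in denervated WT, and 1.54 and 1.85 in innervated WT. B2m exceeded the summed heavy chains 1.10 and 1.11 times in DKO-labelled libraries, 1.44 and 1.35 times in denervated WT, and 1.40 and 1.29 times in innervated WT. Again the DKO-labelled libraries lay outside the range of the 4 WT libraries. The ratio of Tap2 to Tap1 was 3.17 and 6.08 in DKO-labelled libraries, 5.13 and 5.63 in denervated WT, and 3.02 and 3.79 in innervated WT, and 3 of the 4 WT values lay between the values of the DKO-labelled pair.

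The heavy chains that differed were then placed along the chromosome. In the stretch from Tapbp to H2-T10 (chr17:34056422-36258355, mm9), 10 of 13 tested heavy chain genes had an unadjusted p under 0.05 in DKO-labelled against denervated WT (76.9%), 6 of them higher and 4 lower. That count includes members chosen with their changes known. H2-Q1 and H2-Q2 among them passed the filter through the WT libraries alone, so the share is a description and lends no support. Of the 7 heavy chains outside the 10 genes 5 did, and of the 89 other genes in the stretch 12 did (13.5%), beside 726 of 12145 genes outside the stretch (5.98%). None of the genes in the stretch passed the edgeR adjusted threshold. H2-K2, the nearest heavy chain neighbour of H2-K1, was at 0.907 and 0.915 FPKM in DKO-labelled libraries, 2.73 and 2.06 FPKM in denervated WT, and 5.47 and 6.06 FPKM in innervated WT. H2-K2 had a log2 change of -1.34 in DKO-labelled against denervated WT, the opposite sign to H2-K1. In the other direction H2-Q8 was at 1.18, H2-T24 at 1.07, H2-Q7 at 0.88 and the joined entry of H2-T22 and H2-T9 at 0.76. H2-DMb2, a class II loading gene of the same stretch, was at -3.01 (edgeR adjusted p = 0.357). In DKO-labelled libraries it was at 0.468 and 0.13 FPKM, from 15.8 and 4.18 fragments. Like H2-Q1 and H2-Q2 it passed the filter through the WT libraries alone, and it is among the 12 of the 89 other genes. H2-K2, H2-Gs10, H2-T24, H2-Q7, H2-DMb2, A930015D03Rik and Gm11127 were chosen after their values were seen.

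**Figure D4:**
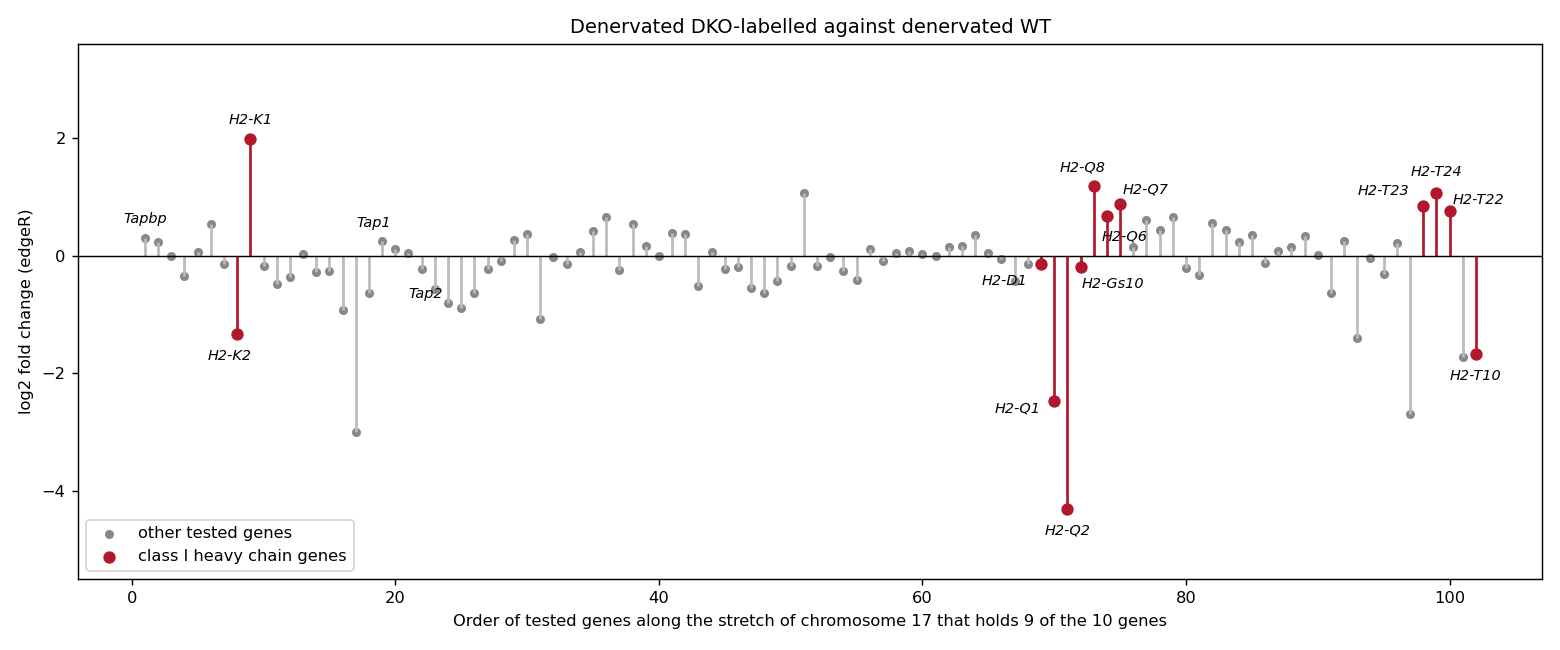
log2 change in DKO-labelled against denervated WT of each tested gene, in order along the stretch of chromosome 17 that holds 9 of the 10 genes, with heavy chain genes in red. Heavy chains lie on both sides of 0, from H2-Q2 at -4.31 to H2-K1 at 1.99.

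Of the 103 tested genes in the other 16 lists edgeR called 0 in this comparison. At an unadjusted p under 0.05 there were 7, beside 6.11% of all genes tested. DESeq2 and limma called 1 each, Hfe in both, beside 1.49% and 0.269% of all genes tested. Hfe encodes a class I-like protein that controls iron uptake and pairs with beta-2 microglobulin. It was at 3.19 and 3.84 FPKM in DKO-labelled libraries, 13.1 and 11.9 FPKM in denervated WT, and 16 and 15.8 FPKM in innervated WT, with a log2 change of -1.80 ± 0.18 between the denervated groups (edgeR adjusted p = 0.052). Its gene is on another chromosome than the H2 complex. The immunoproteasome genes were close to equal, with a median change of 0.04 over 5 genes, and the regulators had a median of -0.05 over 24. Psmb9 was at 4.71 and 3.35 FPKM in DKO-labelled libraries, against 4.56 and 2.43 FPKM in denervated WT.

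Of the tested cell type markers edgeR, DESeq2 and limma called 0 between the denervated groups, and 1 macrophage marker was at an unadjusted p under 0.05. It was Cd68, a lysosomal protein of macrophages, at 52.8 and 46.4 FPKM in DKO-labelled libraries, against 24.9 and 35.4 FPKM in denervated WT, with a log2 change of 0.74 ± 0.27 (edgeR adjusted p = 0.757). Cd14, a receptor for bacterial lipopolysaccharide on monocytes, was at 3.74 and 1.86 FPKM in DKO-labelled libraries, against 7.59 and 4.21 FPKM in denervated WT, with a log2 change of -1.05 ± 0.47 (edgeR adjusted p = 0.852). Neither gene overlapped between the groups, and they lay on opposite sides. The median log2 change was -0.07 over 10 endothelial markers, 0.05 over 11 macrophage markers, 0.03 over 2 dendritic cell markers, 0.05 over 6 fibroblast markers, -0.01 over 6 Schwann cell markers and -0.23 over 7 slow fibre markers. Summed endothelial markers were at 72.0 to 108 FPKM in DKO-labelled libraries, against 91.5 to 99.5 FPKM in denervated WT. T and NK cell markers summed to 0.381 to 0.789 FPKM in DKO-labelled libraries, against 0.724 to 0.887 FPKM in denervated WT, and B cell markers to 0.101 to 0.267 FPKM, against 0.384 to 0.521 FPKM. Macrophage markers summed to 195 to 331 FPKM in DKO-labelled libraries, against 251 to 330 FPKM in denervated WT, and fibroblast markers to 395 to 469 FPKM, against 369 to 533 FPKM. Schwann cell markers summed to 21.0 to 22.8 FPKM in DKO-labelled libraries, against 22.9 to 23.1 FPKM in denervated WT, and slow fibre markers to 8680 to 10300 FPKM, against 9980 to 10700 FPKM. All of these ranges overlapped except those of the B cell and Schwann cell lists. The class II genes had a median of -0.85 over 6 genes, summing to 35.5 to 103 FPKM in DKO-labelled libraries, against 65.2 to 191 FPKM in denervated WT. The part of any of these lists in the differences of class I genes was not tested.

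**Figure D5:**
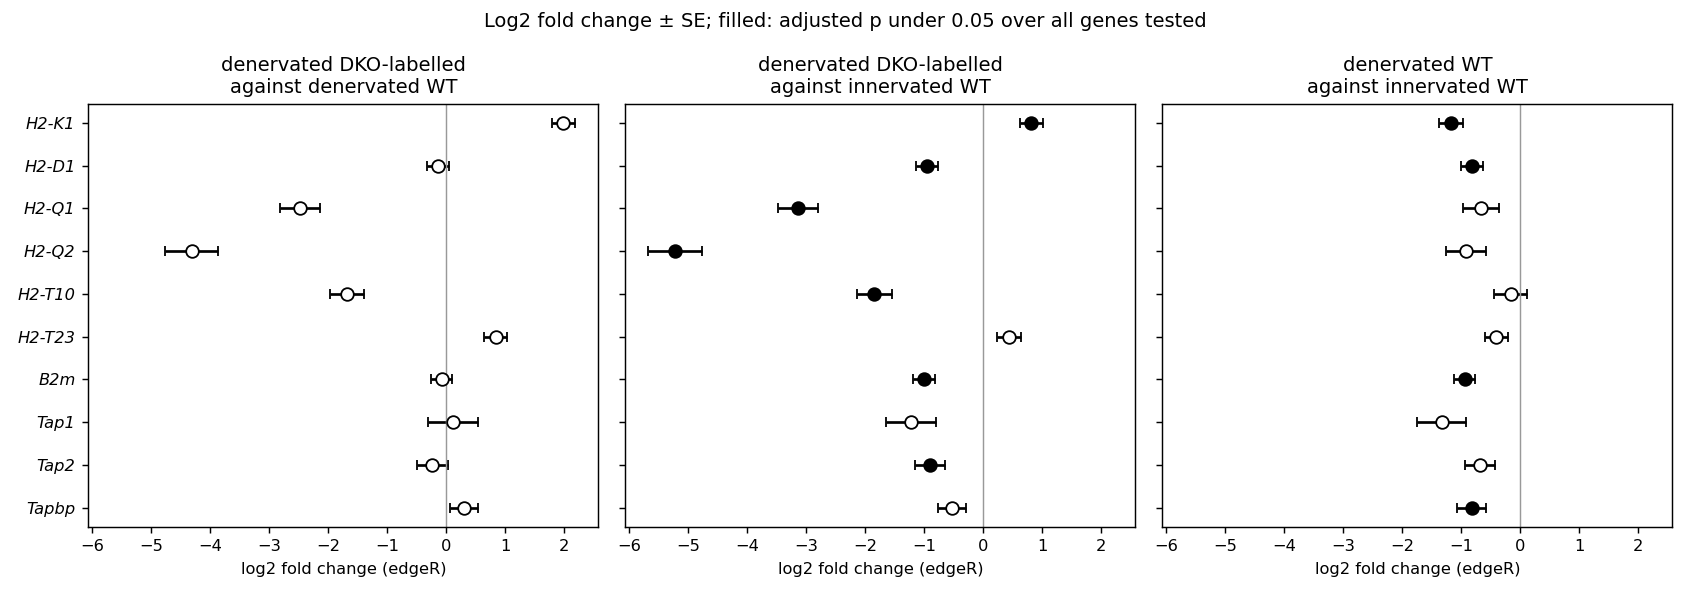
log2 change with its standard error (bars) for the 10 genes in each of the 3 comparisons, 1 panel each, with filled points for genes called by edgeR. H2-K1 is at 1.99 in DKO-labelled against denervated WT, at 0.82 in DKO-labelled against innervated WT and at -1.17 in denervated WT against innervated WT.

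The third comparison set DKO-labelled muscle against innervated WT muscle, so that genotype and denervation both differ and cannot be told apart in it. It shares libraries with each of the other comparisons. H2-K1 rose and 6 members fell, H2-D1, H2-Q1, H2-Q2, H2-T10, B2m and Tap2, beside 15.2% of all genes tested that were called higher, 16.2% called lower and 31.4% called either way. DESeq2 called 8 members, beside 38.5% of all genes, and limma on log2(FPKM + 0.5) called 7, beside 31.6%, without H2-K1. H2-K1 had a log2 change of 0.82 ± 0.20 (edgeR adjusted p = 0.0239). H2-Q2 fell by 5.22 (edgeR adjusted p = 0.00163) and H2-Q1 by 3.14 (edgeR adjusted p = 0.0026), the pair that passed the filter through WT libraries alone, and without them 4 of 8 members fell. H2-T10 fell by 1.84 (edgeR adjusted p = 0.00668). B2m fell by 1.0, H2-D1 by 0.95 and Tap2 by 0.90, with edgeR adjusted p-values of 0.0101, 0.0135 and 0.0404. H2-T23 at 0.44, Tap1 at -1.22 and Tapbp at -0.52 missed the threshold, with edgeR adjusted p-values of 0.141, 0.0687 and 0.149. The median of the members was -0.98, beside 0.01 for all genes tested. The call of H2-K1 was lost when any 1 of the 4 libraries of this comparison was left out, and the calls of H2-Q1 and H2-Q2 were kept each time. Fewer members were called lower when any 1 of these libraries was left out, and fewer of all genes tested were called.

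Among the other lists 12 genes rose and 33 fell of 103 tested, beside 15.2% of all genes tested called higher and 16.2% called lower. Both list counts were lower when any 1 of the 4 libraries of this comparison was left out. The count over all genes tested was lower as well. Of the 10 folding and trimming genes 7 rose and 1 fell, and of the 24 regulators 6 fell. Psme1, a subunit of the proteasome activator, was at 16.9 and 15.9 FPKM in DKO-labelled libraries, against 47.6 and 42.8 FPKM in innervated WT. Its partner Psme2 was at 16 and 20.1 FPKM in DKO-labelled libraries, against 20.3 and 20.1 FPKM in innervated WT. Of the 5 immunoproteasome genes 4 fell, Psme1 by 1.36 ± 0.18, Psmb9 by 1.28 ± 0.37, Psmb10 by 1.05 ± 0.23 and Psmb8 by 0.90 ± 0.24. None of the 6 tested genes in the list of other heavy chains was called by edgeR in this comparison. In that list 1 gene was at an unadjusted p under 0.05, and DESeq2 and limma called 1 each. H2-K2 and H2-Gs10, heavy chains outside that list that were added after their values were seen, were both called lower. Their log2 changes were -2.51 ± 0.28 and -1.29 ± 0.23 (edgeR adjusted p = 0.00271 and 0.00902). Of 5 class I-like genes 4 fell, Hfe by 2.07 ± 0.18, Mr1 by 1.48 ± 0.31 and Procr by 1.19 ± 0.32. Cd1d1, which presents lipids to natural killer T cells, fell by 2.05 ± 0.53. Of 10 endothelial markers 9 fell, with a median of -1.18, and they summed to 72.0 to 108 FPKM in DKO-labelled libraries, against 198 to 234 FPKM in innervated WT. Of 11 macrophage markers 2 rose, Cd68 by 2.32 ± 0.29 and Fcgr1 by 1.40 ± 0.39. The other 9 were not called, 3 of the 11 had values below 0, and the median was 0.36. The part of these lists in the changes of class I genes was not tested.

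Genes whose levels were most like those of B2m were looked for among the 12237 tested genes outside the 10. By Pearson r of log2 CPM, used here only as a measure of likeness over 6 libraries that fall into groups, they were Cdc42ep2 (0.9988), Ppip5k1 (0.9985), Fam117a (0.9982), Phkg1 (0.998) and Leng8 (0.998). Cdc42ep2, an effector of the GTPase Cdc42, was at 5.0 and 3.34 FPKM in DKO-labelled libraries, 5.8 and 3.32 FPKM in denervated WT, and 22.1 and 19.8 FPKM in innervated WT. An r above 0.99 with B2m was found for 128 of 12237 genes. Among the 10 genes themselves the r with B2m was highest for H2-D1 (0.98), Tap1 (0.95) and Tap2 (0.94), and it was 0.08 for H2-K1.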

How the data were processed

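RNA from whole soleus muscle was sequenced in 6 libraries of 3 groups of 2. The submitters' processing notes name TopHat2 2.0.3 and Cuffdiff 2.0.2, with CASAVA 1.8.2, Bowtie2 2.0.0.7 and Trim Galore 0.2.1, and the build mm9. Annotation, strand setting and read length were not given in the sources used here. The tables that the authors deposited give, per the file headers, per gene, estimated counts (raw fragments), a scaled signal (fragments divided by a library factor of 0.6643 to 1.5641) and FPKM. Each of 21805 entries stood 3 times and was used once, and symbols with several entries were summed.

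Deposited estimated counts were rounded to whole numbers and tested with edgeR 4.0.16 in R 4.3.3 (quasi-likelihood test, TMM scaling, 1 fit of all 6 libraries, 3 residual degrees of freedom), over the 12247 genes with a mean of at least 0.5 FPKM. Called means a two-sided Benjamini-Hochberg adjusted p under 0.05 over all of these genes. Standard errors were taken from the log2 change and its F statistic (their ratio after a square root of F). The test was first tested on simulated data. In each simulated data set 200 of 12211 genes were changed. Over the 3 comparisons the test called 19.0% to 22.3% of 2-fold changes and 84.7% to 87.7% of 4-fold changes, with a mean of 9.0 to 12.0 false calls. An uncalled change near 2-fold is therefore not shown to be absent. The simulated share of changed genes was below the 28.7% and 31.4% called here against innervated WT, so these rates may not carry over to those comparisons. Alternatives were RLE scaling, library totals alone, no filter, a mean of at least 2 FPKM, a replicate block, a fit of the 4 libraries compared, limma 3.58.1 on log2(FPKM + 0.5) and log2(FPKM + 1), DESeq2 1.42.0, and leaving out each library.

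The 10 genes, the gene lists, the motifs and the tests were chosen with earlier results of these data known. Named in the text were the 10 genes, up to 4 called genes of each other list (or, with none called, the 2 of smallest p), Dach2, Hdac9 and the 5 genes most like B2m. Other names were added after their values were seen, and some genes that this rule names are not reported here.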

Additional observations from a re-analysis of the deposited data

How the results depend on the processing

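Members called lower in denervated WT against innervated WT were 4, against 2 with library totals alone, 7 with limma on log2(FPKM + 0.5) and 0 to 6 with 1 library left out. Over the other lists 10 genes were called higher and 35 lower, against 20 and 23 with library totals alone, and 0 to 14 and 2 to 48 with 1 library left out. All genes called were 3512, and 202 to 5357 with 1 left out. In DKO-labelled against denervated WT edgeR called 0 members in each direction. The number called higher was 1 with RLE scaling, no filter and either limma pseudocount, 2 with DESeq2 and 0 to 1 with 1 library left out. The number called lower was 1 with RLE scaling and limma on log2(FPKM + 0.5), 3 with no filter and DESeq2, and 0 to 1 with 1 left out. Over the other lists 1 gene was called lower with RLE scaling, no filter, limma and DESeq2, and 0 to 1 with 1 left out. All genes called in that comparison were 5, against 10 with RLE scaling, 60 with no filter, 2 with a mean of at least 2 FPKM, 0 with 4 libraries, 33 with limma at either pseudocount, 182 with DESeq2, and 0 to 119 with 1 left out. In DKO-labelled against innervated WT the 1 member called higher became 2 with library totals alone and 0 with limma on log2(FPKM + 0.5), and 0 to 1 with 1 library left out, while members called lower were 2 to 8. Over the other lists 12 genes were called higher, against 19 with library totals alone and 1 to 14 with 1 left out, and 33 lower, against 6 to 44. All genes called were 3843, and 661 to 5517 with 1 left out. Where 1 library was left out, its group had a lone library that is assumed to vary like the other groups.

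Leaving out 1 library moved the log2 change of Lilrb3 in denervated WT against innervated WT over -0.13 to 0.79, and in DKO-labelled against denervated WT that of H2-D1 over -0.38 to 0.06, B2m -0.24 to 0.13, Tap1 -0.43 to 0.63 and Tap2 -0.55 to 0.20. Signs that turned were H2-T10 in denervated WT against innervated WT with library totals alone (0.11) and Lilrb3 there without the first denervated WT library (-0.13) or the second innervated WT library (-0.12). In DKO-labelled against denervated WT they were H2-D1 (0.06) and B2m (0.06) without the second DKO-labelled library, B2m (0.13) and Tap2 (0.20) without the first denervated WT library, and Tap1 without the first DKO-labelled library (-0.43) or the second denervated WT library (-0.25). The cause was not tested for any of these. With library totals alone the median of all genes was 0.27, 0.04 and 0.33 in the 3 comparisons, against 0.00, -0.02 and 0.01. With a replicate block edgeR called 5 members lower in denervated WT against innervated WT, 0 in DKO-labelled against denervated WT, and 1 higher and 7 lower in DKO-labelled against innervated WT, with Tap1 called lower in both comparisons against innervated WT. The numbers come from accession order, the sample numbers in the titles run in 2 consecutive sets of 3 with 1 library of each group, no label calls a set a batch, the correlations of deviations were 0.19, 0.11 and 0.40, and the numbers were not taken to pair the libraries.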
